A study of Drosophila melanogaster with 6 samples.

Results

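The genes described here are 7 cytochrome P450 genes of Drosophila melanogaster, of 16641 gene IDs counted. They are Cyp12a4, Cyp12a5, Cyp12c1, Cyp12d1-p, Cyp49a1 and Cyp301a1, which belong to the mitochondrial clan of insect P450s, and Cyp18a1, which belongs to the CYP2 clan and acts on steroid hormone. They were chosen by name and matched through their FlyBase IDs, and 7 of 7 were found. RNA was sequenced from heads of male flies aged 3 days and kept at 18 C. The mutant group was 3 libraries of a stock carrying y, sc and the allele Adar5G1, and the comparison group was 3 libraries of the laboratory strain w1118. Each group is 1 stock, so a difference caused by the Adar allele and one caused by the rest of the stock's genome cannot be told apart. The comparison asked which head transcripts differ in abundance between flies with and without Adar, the enzyme that converts adenosine to inosine in RNA. The labels do not state whether replicate libraries are independent fly collections. The p-values therefore measure spread among 6 libraries, part of which may be technical.

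Cytochrome P450s are haem enzymes that add oxygen to small molecules. Most insect P450s sit in the endoplasmic reticulum and take electrons from the reductase Cpr. Those of the mitochondrial clan are imported into mitochondria and take electrons from a ferredoxin, which the ferredoxin reductase dare reduces. Some mitochondrial P450s make ecdysone, the steroid hormone of moulting, and others, among them Cyp12 genes, are known from insecticide metabolism.

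Library totals ran from 6872569 to 21639081 counts over genes, and ribosomal and unplaced non-coding RNA took 4.31% to 42.4% of them. Adar itself had a mean of 0.476 CPM (counts scaled to 1000000 per library, with TMM factors) in Adar5G1 and 318 CPM in w1118. Photoreceptor markers summed to between 12347 and 14209 CPM in Adar5G1 and between 14509 and 15799 CPM in w1118. Neuron markers summed to between 4160 and 5095 CPM in Adar5G1 and between 3624 and 4092 CPM in w1118. Male reproductive tract markers summed to at most 1.08 CPM in each library. Of 10201 genes tested across the whole table with edgeR's quasi-likelihood test, 13.9% passed an adjusted p of 0.05, 900 with higher and 523 with lower values in Adar5G1. Upper-quartile scaling gave 812 higher and 764 lower, and scaling by total counts only gave 582 and 209.

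All 7 P450 genes passed the filter on low counts. Of these, 4 were higher in Adar5G1 (Cyp12a5, Cyp12c1, Cyp12d1-p and Cyp18a1), where 8.82% of all tested genes were. Among the 4, Cyp12d1-p passed the filter only through its Adar5G1 libraries, so its place in this count is not independent of its direction. Cyp12a4 was lower, as 5.13% of all tested genes were, and 2 did not pass the test (Cyp49a1 and Cyp301a1). The groups of 3 libraries did not overlap for the 5 genes that passed, nor for 31.5% of all tested genes.

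Cyp12a4 (FBgn0038681, 3R:14960880-14962858 in dm3, plus strand), whose overexpression is known to give resistance to the insecticide lufenuron, was the more abundant of a tandem pair in w1118 and the less abundant in Adar5G1. It had 396, 673 and 526 counts in w1118 replicates 1, 2 and 3 and 33, 23 and 61 in the Adar5G1 replicates. Scaled by library size these were 46.0, 37.3 and 56.8 CPM in w1118 and 2.44, 3.40 and 2.92 CPM in Adar5G1. The lowest w1118 library was thus 11.0 times the highest Adar5G1 library. This was a log2 fold change of -4.02 with an SE of 0.20 (edgeR adjusted p = 1.24e-05). The spread between Adar5G1 libraries, a coefficient of variation of 16.4%, was about the 17.9% that counting alone would give at these counts. In w1118 it was 20.9%, above the 4.55% of counting error.

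Cyp12a5 (FBgn0038680, 3R:14958174-14960426, plus strand) lies 454 bases before Cyp12a4 on the same strand, and moved the other way by much less. Its values were 7.08, 7.38 and 7.78 CPM in w1118 and 10.3, 12.4 and 10.2 CPM in Adar5G1. The lowest Adar5G1 library was 1.31 times the highest w1118 library. On the log2 scale it rose by 0.54 with an SE of 0.13 (edgeR adjusted p = 0.0240). The call was lost in 8 of 18 alternative settings, and over all 18 the adjusted p ran from 0.0225 to 0.397. Among the 8 were the fits without Adar5G1 replicate 1 (adjusted p = 0.0583) or 2 (0.0655) and without w1118 replicate 1 (0.0886) or 2 (0.0801). The exons of Cyp12a4 and Cyp12a5 overlapped those of no other gene in the deposited annotation.

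**Figure D1:**
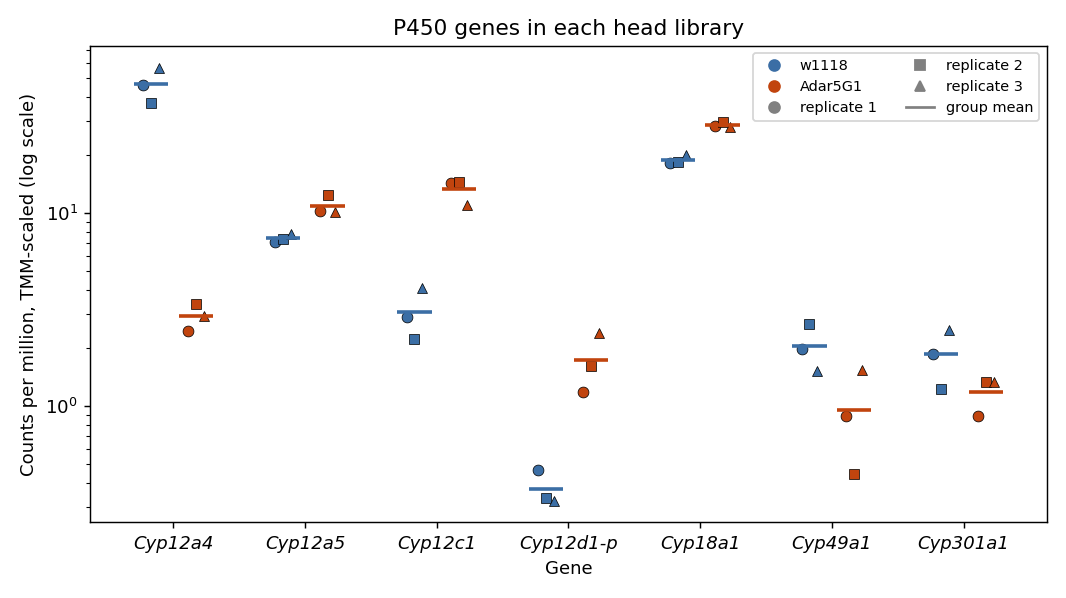
CPM with TMM factors (log axis) of the 7 P450 genes in each head library, with 3 w1118 and 3 Adar5G1 libraries as points and group means as bars. The w1118 libraries lie between 37.3 and 56.8 CPM for Cyp12a4, above every Adar5G1 library, while for Cyp12c1 and Cyp18a1 the Adar5G1 libraries lie above.

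Levels of different genes were compared as CPM per kilobase of exon. In w1118 the order was Cyp12a4 (27.5 ± 5.75, SD, n = 3), Cyp18a1 (6.18 ± 0.329), Cyp12a5 (3.68 ± 0.172), Cyp12c1 (1.91 ± 0.592), Cyp301a1 (0.956 ± 0.326), Cyp49a1 (0.723 ± 0.204) and Cyp12d1-p (0.215 ± 0.0452). Cyp301a1 and Cyp49a1 did not differ there beyond their spread. In Adar5G1 the order was Cyp18a1 (9.39 ± 0.347), Cyp12c1 (8.22 ± 1.21), Cyp12a5 (5.43 ± 0.628), Cyp12a4 (1.72 ± 0.282), Cyp12d1-p (0.996 ± 0.352), Cyp301a1 (0.611 ± 0.133) and Cyp49a1 (0.337 ± 0.193). The means of Cyp18a1 and Cyp12c1 lay within the SD of Cyp12c1. The libraries of Cyp12d1-p and Cyp301a1 overlapped, and so did those of Cyp301a1 and Cyp49a1. Within each single Adar5G1 library these pairs kept the order given, which was not tested. Cyp12a4 went from above 81.7% of the tested genes by mean level per kilobase in w1118 to above 11.0% of them in Adar5G1. Cyp12c1 went from above 13.4% to above 45.7%, and Cyp18a1 from above 38.0% to above 49.7%.

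Cyp12a4 gave 67.3%, 63.2% and 69.1% of the summed level per kilobase of the 7 genes in w1118 replicates 1, 2 and 3, and 5.50%, 6.98% and 6.80% in Adar5G1. Cyp18a1 (35.2% ± 0.989, SD, n = 3), Cyp12c1 (30.7% ± 3.55) and Cyp12a5 (20.3% ± 1.03) held most of the sum in Adar5G1. Within the tandem pair alone, Cyp12a4 made up 88.5% of the level per kilobase in w1118 replicate 1 (exact 95% interval 85.5% to 91.1%), 85.7% in replicate 2 (83.3% to 87.9%) and 89.7% in replicate 3 (87.1% to 91.8%). In Adar5G1 it made up 22.0% (15.7% to 29.3%), 24.5% (16.4% to 34.3%) and 25.5% (20.2% to 31.3%). These intervals cover counting error only. The sum over the 7 genes was 41.2 ± 6.85 CPM per kilobase in w1118 and 26.7 ± 1.75 in Adar5G1, and without Cyp12a4 it was 13.7 ± 1.14 and 25.0 ± 1.56 (SD, n = 3 each). These sums are descriptions and were not tested.

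**Figure D2:**
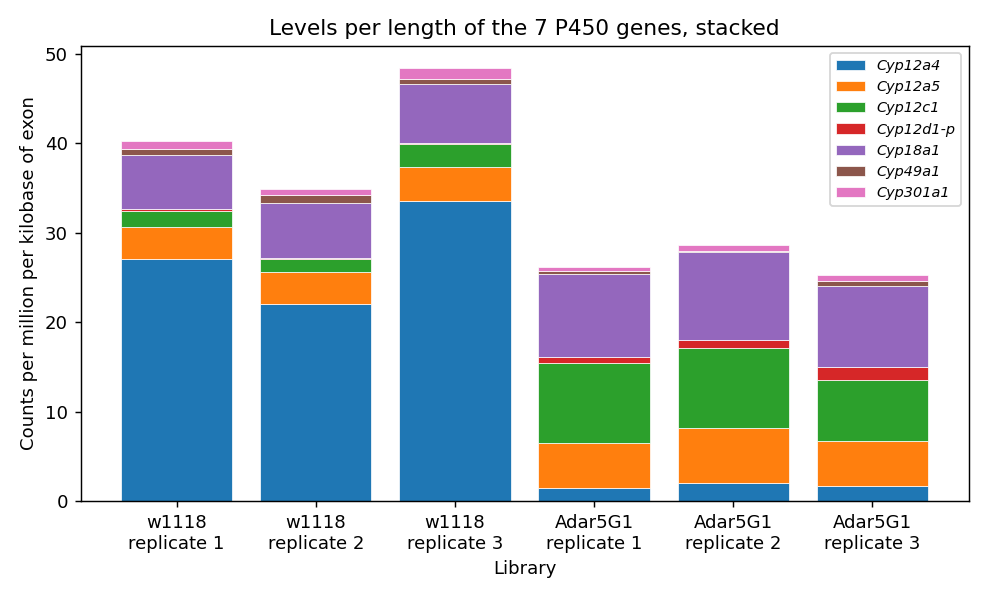
Stacked CPM per kilobase of exon of the 7 P450 genes, 1 bar for each head library. Cyp12a4 fills 63.2% to 69.1% of each w1118 bar and 5.50% to 6.98% of each Adar5G1 bar.

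Cyp12c1 and Cyp12d1-p, the other Cyp12 genes of the group, were higher in Adar5G1. Cyp12c1 (FBgn0036806, 3L:18677629-18679419, minus strand) had 2.90, 2.22 and 4.10 CPM in w1118 and 14.3, 14.5 and 11.0 CPM in Adar5G1. Its highest w1118 library and its lowest Adar5G1 library were both replicate 3, and the groups still lay 2.68-fold apart at their closest. Cyp12c1 thus rose by 2.15 on the log2 scale, with an SE of 0.23 (edgeR adjusted p = 6.79e-04).

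Cyp12d1-p (FBgn0050489, 2R:7007471-7009389, minus strand) is a gene that caffeine and phenobarbital are known to induce and whose overexpression is known to give resistance to DDT. It was low in both stocks, with 4, 6 and 3 counts in w1118 and 16, 11 and 50 counts in Adar5G1. These were 0.465, 0.333 and 0.324 CPM against 1.18, 1.62 and 2.39 CPM, a log2 difference of 2.27 with an SE of 0.42 (edgeR adjusted p = 0.00876). It reached the count filter's cutoff of 0.828 CPM in 3 of 3 Adar5G1 libraries and in 0 of 3 w1118 libraries, so it could enter the test only because it was higher in Adar5G1. Its close copy Cyp12d1-d (FBgn0053503) had 0 counts in each of the 6 libraries. Reads that fit both copies need not have been counted, so the level of Cyp12d1-p and its separation from the copy are uncertain.

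Cyp18a1 (FBgn0010383, X:18582571-18587075, minus strand) encodes the enzyme that oxidises and inactivates the active form of ecdysone. Its values were 18.1, 18.4 and 20.0 CPM in w1118 and 28.2, 29.8 and 27.8 CPM in Adar5G1. The coefficients of variation, 5.32% in w1118 and 3.70% in Adar5G1, were below the 7.05% and 5.64% of counting error. Its log2 fold change of 0.60 had an SE of 0.09 (edgeR adjusted p = 0.00307), and this call was lost when libraries were scaled by total counts only (0.62, adjusted p = 0.227, with 3.05e-04 to 0.227 over the settings tried).

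Cyp49a1 (FBgn0033524, 2R:6336855-6346397, minus strand) and Cyp301a1 (FBgn0033753, 2R:8453690-8456566, plus strand), which is known from the formation of adult cuticle, were near the limit of detection. Cyp49a1 had 17, 48 and 14 counts in w1118 and 12, 3 and 32 in Adar5G1. These were 1.97, 2.66 and 1.51 CPM against 0.887, 0.443 and 1.53 CPM. Adar5G1 replicate 3 lay above w1118 replicate 3, and the log2 fold change of -0.97 (SE 0.39) did not pass (edgeR adjusted p = 0.161). Without both libraries numbered 3 it was -1.70 and passed (adjusted p = 0.0362, with 0.0362 to 0.481 over the settings tried). Without Adar5G1 replicate 3 alone it was -1.54 and did not pass. Cyp49a1 lies inside the span of Galphao, a G protein subunit gene on the opposite strand with 424 and 436 CPM in Adar5G1 and w1118, with 0 bases of shared exon.

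Cyp301a1 had 16, 22 and 23 counts in w1118 and 12, 9 and 28 in Adar5G1, or 1.86, 1.22 and 2.48 CPM against 0.887, 1.33 and 1.34 CPM. The groups overlapped, and the log2 fold change of -0.58 (SE 0.35) did not pass (edgeR adjusted p = 0.346). Its last 48 exon bases also belong to Ak6 on the opposite strand.

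**Figure D3:**
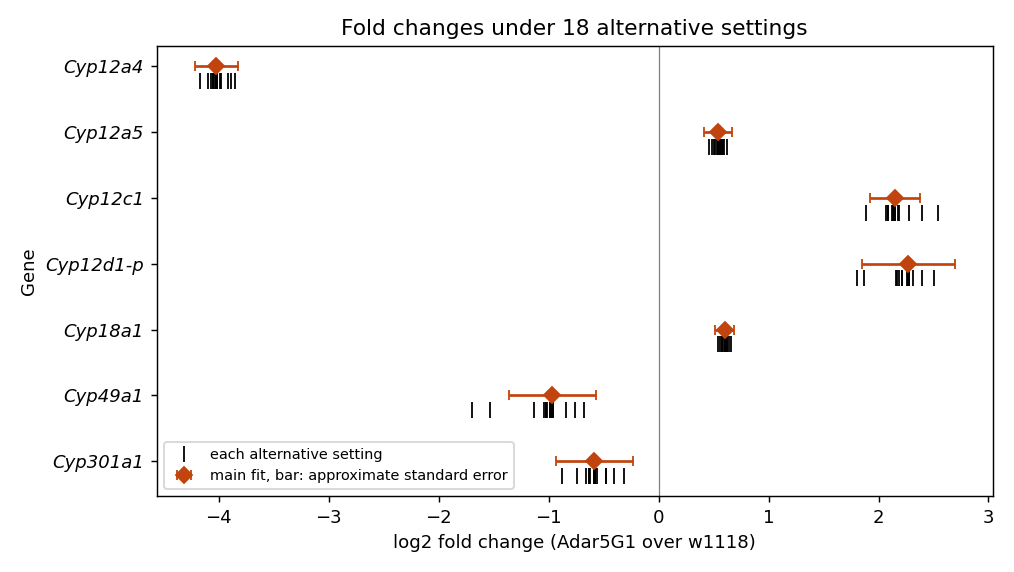
The log2 fold change (Adar5G1 over w1118) of each P450 gene in the main fit, with its approximate standard error as a bar, and under each alternative setting as ticks. Cyp12a4 stays between -4.17 and -3.86, Cyp12c1 between 1.89 and 2.54, and Cyp49a1 spreads from -1.70 to -0.68.

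No other tested gene within 40 kb of Cyp12a4 was called lower. CG6040, the nearest tested gene beyond Cyp12a5, had a log2 fold change of -0.30 (edgeR adjusted p = 0.0800). Ppcs, on the other side, had -0.10 (edgeR adjusted p = 0.585). Of 9 tested genes with midpoints within 40 kb, 2 were called higher, Cyp12a5 and CG5835. Over all tested genes the share called higher was 8.82%. Around Cyp12c1, 2 of 8 tested genes were higher. One was GNBP1 (1.26, edgeR adjusted p = 0.00209), which encodes a recognition protein of the Toll pathway, and the other CG42495 (1.32). Its nearest tested neighbour, Chmp1, had -0.02. Cyp18a1 stands tail to tail with phtm, 105 bases away on the opposite strand. That gene encodes a hydroxylase of ecdysone synthesis, and it had 1.54 ± 0.334 CPM in Adar5G1 and 0.645 ± 0.661 in w1118 (SD, n = 3 each), which did not pass (edgeR adjusted p = 0.364). Around Cyp49a1, 5 of 13 tested genes were higher. They were the peroxiredoxin genes Prx6b (0.94) and Prx6c (1.47), CG11825 (1.84), pre-lola-G (0.70) and the carnitine palmitoyltransferase gene whd (1.12).

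**Figure D4:**
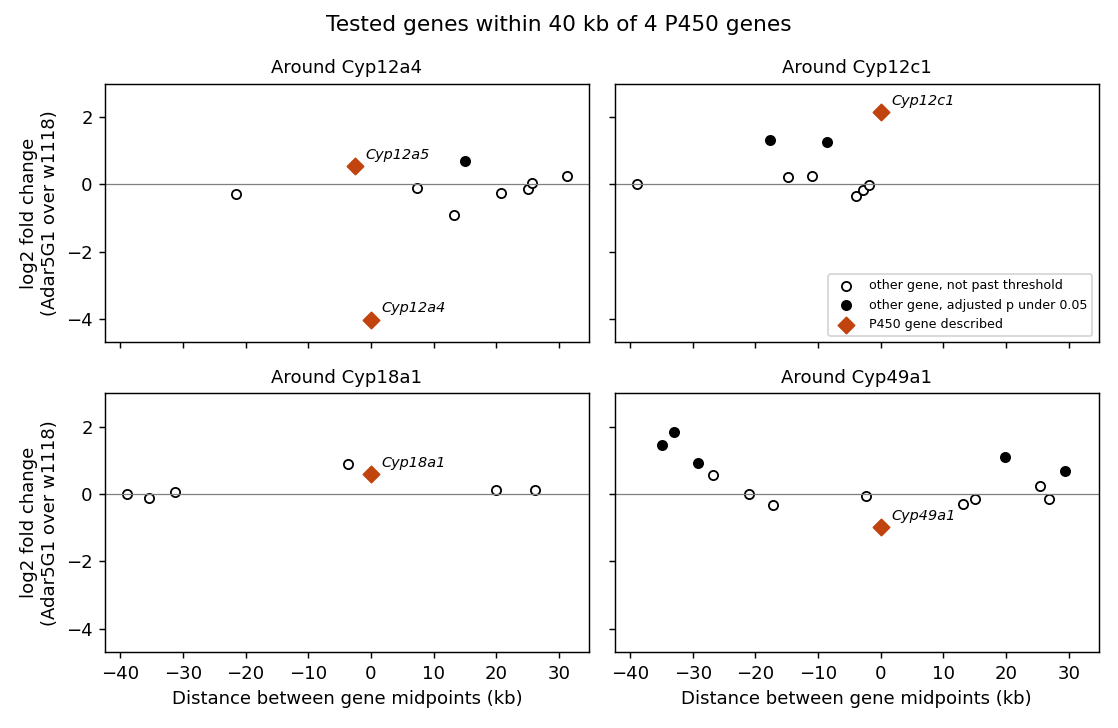
The log2 fold change (Adar5G1 over w1118) of tested genes against the distance in kb between their midpoint and that of Cyp12a4, Cyp12c1, Cyp18a1 or Cyp49a1, with filled points past an adjusted p of 0.05. Cyp12a4 lies at -4.02 and its neighbours lie between -0.90 and 0.69.

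Likeness of profile was measured as the root mean square difference in log2 of CPM plus 0.5 over the 6 libraries. Each gene's own mean was removed first. Genes averaging 5 CPM or more were compared. Nearest to Cyp12a4 were the photolyase gene phr (0.25), CG8757 (0.29) and CG17005 (0.37), on 3 other chromosome arms. Nearest to Cyp12a5 were CG8314 (0.04), the cyclic GMP-dependent kinase gene for (0.04) and the glycogen-targeting subunit gene Gbs-76A (0.05). Nearest to Cyp12c1 were Irc (0.07), an immune-regulated catalase gene, CG11899 (0.08) and the mannosidase gene LManI (0.11). Nearest to Cyp18a1 were Pino (0.05), the amino acid transporter gene path (0.05) and CG8314 (0.05). For the 3 scarce genes the nearest profiles were farther for Cyp12d1-p (exp, 0.17, CG42784, 0.21, and Nmdmc, 0.21) and Cyp49a1 (Oseg4, 0.18, Kif3C, 0.19, and CG40498, 0.21) than for Cyp301a1 (Cyp6w1, 0.09, Miox, 0.11, and Orco, 0.12). With 2 groups of 3 libraries, genes well above 0.5 CPM and of like fold change lie near each other by this measure. The added 0.5 shrinks the changes of scarce genes, so their nearest profiles need not have a like fold change. Cyp12d1-p, with a log2 fold change of 2.27, lay nearest to exp, with 1.31.

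Of the 6 other listed members of the mitochondrial clan, 3 were tested, and 0 passed with edgeR. At an unadjusted p under 0.05 the count was also 0, as it was with DESeq2 and limma-voom at an adjusted p of 0.05. Cyp12b2 had 36.9 ± 1.57 CPM in Adar5G1 and 37.2 ± 3.48 in w1118, and Cyp12e1 13.5 ± 1.05 and 13.5 ± 1.46 (SD, n = 3 each). The ecdysone hydroxylase gene shd had 2.21 ± 1.02 and 1.47 ± 0.686 CPM. The synthesis genes dib and sad had 8 and 22 counts over Adar5G1 and 11 and 29 over w1118, too few to be tested. In the CYP2 clan, Cyp305a1 had 12.9 ± 5.36 CPM in Adar5G1 and 21.3 ± 7.68 in w1118 and did not pass (edgeR adjusted p = 0.222).

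Among genes of ecdysone synthesis, uptake and inactivation other than Cyp18a1, 6 of 13 listed were tested and 1 rose. This was Oatp74D, the ecdysone importer, with 49.0, 45.5 and 44.0 CPM in Adar5G1 against 27.8, 24.0 and 30.3 in w1118 (log2 fold change 0.76, SE 0.10, edgeR adjusted p = 0.00229). The call was lost with total counts only (adjusted p = 0.0606, with 1.15e-06 to 0.0606 over the settings tried). The synthesis gene spok had 5 counts over Adar5G1 and 29 over w1118, and spo and the oxidase gene Eo had 0 in all libraries. Of 20 listed genes of the ecdysone receptor and its response, 18 were tested, 3 rose and 15 did not pass, where 8.82% of all tested genes rose. Their median log2 fold change was 0.09 beside -0.0003 for all genes tested. The rises were those of MsrA, an ecdysone-induced methionine sulfoxide reductase gene (0.66, SE 0.09, edgeR adjusted p = 0.00185), the nuclear receptor gene Eip78C (0.42, edgeR adjusted p = 0.00945) and the receptor gene EcR (0.41, edgeR adjusted p = 0.0219). With total counts only none of these 3 calls held (adjusted p of 0.158 for MsrA, 0.728 for Eip78C and 0.833 for EcR). The call of EcR was also lost without Adar5G1 replicate 2 (0.42, adjusted p = 0.0523), w1118 replicate 1 (0.43, 0.0820) or w1118 replicate 3 (0.33, 0.0524), and with upper-quartile factors (0.35, 0.0554). Its adjusted p ran from 0.00535 to 0.833 over the settings tried. The early response genes Eip74EF and Eip75B had -0.03 and -0.01 and did not pass.

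Of the electron carriers, the mitochondrial partners dare, Fdx1 and Fdx2 had log2 fold changes of -0.18, -0.08 and 0.08 and the microsomal reductase Cpr 0.35. With edgeR, 0 of these 4 passed, as with DESeq2 and limma-voom, and 1, Cpr, had an unadjusted p under 0.05 (adjusted p = 0.140). In the list of 6 electron transfer genes 1 rose, where 8.82% of all tested genes did. It was Cyt-b5-r, a cytochrome b5-related gene, with 255, 364 and 217 CPM in Adar5G1 and 82.3, 44.0 and 139 CPM in w1118 (1.66, SE 0.37, edgeR adjusted p = 0.0201). This call was lost without Adar5G1 replicate 2 (1.42, adjusted p = 0.0598) or w1118 replicate 1 (1.60, 0.0890), and its adjusted p ran from 1.71e-07 to 0.117. Cyt-b5 had 112, 138 and 100 CPM in Adar5G1 and 86.4, 64.2 and 91.0 CPM in w1118. Its groups did not overlap, but it did not pass (0.53, edgeR adjusted p = 0.0569). Of 8 regulators of the xenobiotic response 1 rose, Keap1, the inhibitor of the factor cnc (0.35, edgeR adjusted p = 0.0470). It passed in 5 of 18 alternatives, with adjusted p-values from 0.0422 to 0.880. Its call was lost without Adar5G1 replicate 1 (0.28, adjusted p = 0.164) or 2 (0.37, 0.0827) and without w1118 replicate 1 (0.33, 0.134), 2 (0.38, 0.0920) or 3 (0.32, 0.124). Hr96, the nuclear receptor of the xenobiotic response, had 21.4 ± 1.54 and 22.2 ± 1.58 CPM.

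P450 genes of this kind are known from midgut, Malpighian tubule and fat body as well as from the head. Beside the marker counts given here, 8.82% of all tested genes rose and 5.13% fell. Of 7 tested fat body markers 5 rose, and the list summed to between 4653 and 6171 CPM in Adar5G1 and between 2434 and 3853 CPM in w1118, with no marker at 0. Most of this sum was apolpp, 1 of the 5, with 5170, 4907 and 4201 CPM in Adar5G1 and 2607, 2314 and 3647 CPM in w1118. The lipid droplet gene Lsd-1 had 193 ± 83.7 against 22.8 ± 6.52 CPM and the hormone receptor gene AkhR 46.6 ± 7.99 against 9.04 ± 2.02 CPM (SD, n = 3 each). The gene to had 253, 763 and 210 CPM in Adar5G1 and 38.8, 35.0 and 42.1 CPM in w1118 (3.40, edgeR adjusted p = 0.00256). Fbp1, counted among the 5, reached the cutoff of the count filter in 3 Adar5G1 and 0 w1118 libraries, so it was tested only because it was higher in Adar5G1. Its call was lost without w1118 replicate 2 (adjusted p = 0.0640). The midgut list summed to between 217 and 283 CPM in Adar5G1 and between 70.9 and 108 CPM in w1118. Most of this sum was LManII, a mannosidase gene, with 255, 259 and 186 CPM in Adar5G1 and 72.7, 65.4 and 100.3 CPM in w1118. Of the 10 genes 4 were tested and 3 rose (Amy-p, Amy-d and LManII), while Mal-A1, a maltase gene, had 2.52 ± 0.917 CPM in Adar5G1 and 4.07 ± 1.85 CPM in w1118 and did not pass (SD, n = 3 each). Amy-p, like Fbp1, reached the filter's cutoff in 3 Adar5G1 and 0 w1118 libraries. The trypsin genes alphaTry, betaTry, epsilonTry and lambdaTry had 0 counts in all libraries. The Malpighian tubule list summed to between 375 and 389 CPM in Adar5G1 and between 450 and 460 CPM in w1118. Of its 8 genes 5 were tested and 2 fell (Irk2 and Best2), though not with total counts only (edgeR adjusted p of 0.381 and 0.251). The defining genes Uro and salt had 0 counts in all libraries. Of 4 tested muscle markers 2 fell, and the list summed to between 3020 and 3610 CPM in Adar5G1 and between 3293 and 3801 CPM in w1118. These were TpnC41C (log2 fold change -0.89, edgeR adjusted p = 0.0138), a troponin C gene, and Act88F (-0.80, edgeR adjusted p = 0.0220), the flight muscle actin gene. The call of TpnC41C was lost without w1118 replicate 1 (adjusted p = 0.0598), and that of Act88F when Adar5G1 replicate 1 (0.0689), Adar5G1 replicate 3 (0.0530), w1118 replicate 1 (0.0734) or w1118 replicate 2 (0.0616) was left out. Of 3 tested oenocyte markers 1 rose, the fatty acid synthase gene FASN2 (2.32, edgeR adjusted p = 0.00564), a call kept in 18 of 18 alternatives, and the list summed to between 5.89 and 12.3 CPM in Adar5G1 and between 2.92 and 3.02 CPM in w1118. Of 5 tested genes listed for glia 1 rose, the citrate transporter gene Indy (0.80, edgeR adjusted p = 0.0118), which did not pass without w1118 replicate 1 (adjusted p = 0.0610). The others, repo (-0.08), nrv2 (-0.08), moody (-0.24) and Eaat1 (0.03), did not pass. The glia list summed to between 828 and 983 CPM in Adar5G1 and between 815 and 894 CPM in w1118. Of 7 tested photoreceptor markers 1 fell, Rh3 (-0.50, edgeR adjusted p = 0.00626), and 1 rose, Rh4 (0.34, edgeR adjusted p = 0.0484). The call of Rh3 was lost in 2 of 18 alternatives and that of Rh4 in 9. Of 5 tested neuron markers 1 rose, Syt1 (0.52, edgeR adjusted p = 0.0300), a call lost in 8 of 18 alternatives. Antenna markers summed to between 477 and 531 CPM in Adar5G1 and between 515 and 571 CPM in w1118, and haemocyte markers to between 73.0 and 137 CPM and between 71.6 and 212 CPM. In these whole heads, fewer cells of a type and less RNA per cell cannot be told apart, and the part of cell content in the P450 changes was not tested.

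**Figure D5:**
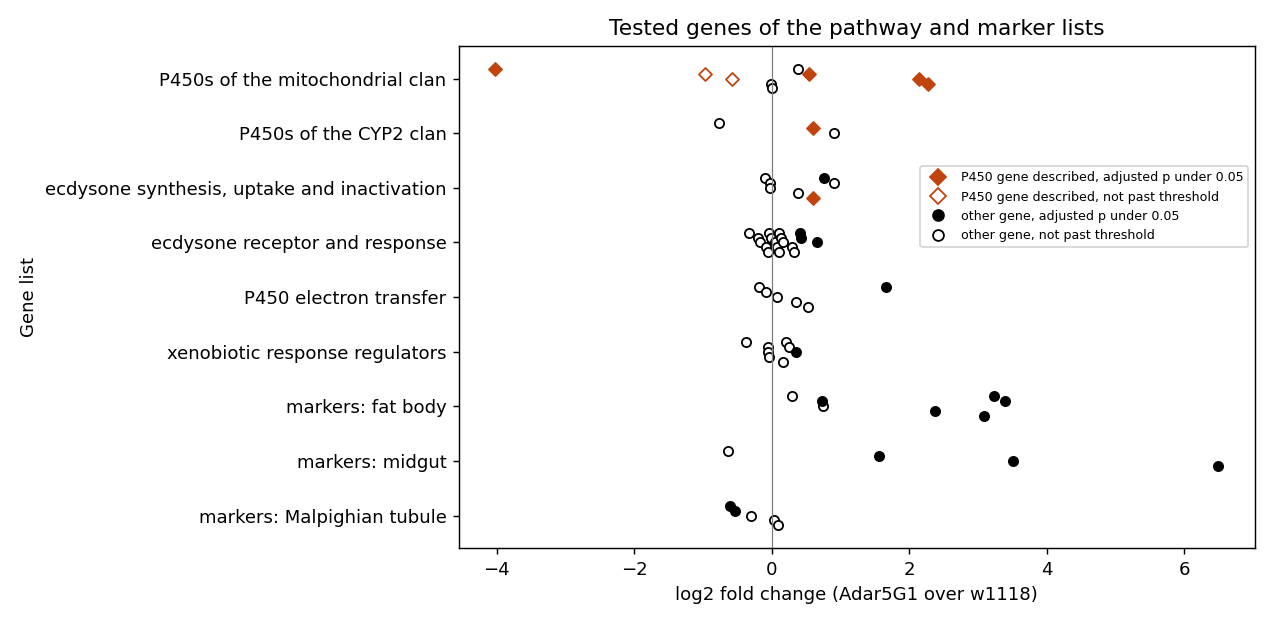
The log2 fold change (Adar5G1 over w1118) of each tested gene in the pathway lists and in 3 marker lists, with filled points past an adjusted p of 0.05 and the P450 genes as diamonds. Most pathway genes lie near 0, and 5 fat body markers are filled on the right.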

How the data were processed

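Each library has 1 deposited table of raw fragment counts by gene. The headers record featureCounts 1.4.5-p1 in reverse-stranded mode over FlyBase 5.53 exons; per the file headers, a fragment over several genes went to each of them, and the option for multi-mapping reads was not set. The submitters' processing notes list TopHat, with no version, and dm3 (BDGP5). Levels per kilobase used the deposited gene length. Symbols came from a table of IDs (15924 of 16641 matched).

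A row without a gene ID (0.369% to 0.633% of counts) was left out. edgeR 4.0.16 in R 4.3.3 was run over all genes: filterByExpr with a minimum of 10 counts, TMM, quasi-likelihood F test on group, Benjamini-Hochberg adjustment, threshold 0.05. Standard errors are approximate, obtained from the log2 fold change and the F statistic. The script was tested on simulated data. The alternatives were DESeq2 1.42.0, limma 3.58.1 (voom), other scalings, filters, dispersion and threshold, the replicate block, ribosomal rows removed, and libraries left out. Counting intervals are exact binomial ones.

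Named genes were drawn from the P450 genes, Adar, up to 4 called genes in each direction of each list, the 2 nearest tested genes on each side and the 3 nearest profiles. Genes within 40 kb, apolpp, and listed genes that did not pass, were named after their values were seen. The members and lists were chosen with earlier results of these data known. The listed names br, nvd, FASN1, FASN3, para, chp, wupA, PPO1, Os9 and don were not matched and were not analysed here. A list of haem metabolism genes is not reported here.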

Additional observations from a re-analysis of the deposited data

How the results depend on the processing

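Across 18 alternatives Cyp12a4 remained lower and Cyp12c1 and Cyp12d1-p remained higher past the threshold, Cyp12d1-p with an adjusted p of up to 0.0499 (without w1118 replicate 2). In the main fit Cyp12d1-p passed the count filter only through its Adar5G1 libraries. The count of P450 genes that rose was 4 in the main fit, 3 to 4 with 1 library left out, and 2 with total counts only, where the calls of Cyp12a5 and Cyp18a1 were lost. The count that fell was 1, and 2 without both libraries numbered 3, where Cyp49a1 passed. The call of Cyp12a5 was lost with DESeq2 (adjusted p = 0.0632), with scaling by total counts (0.397), without Adar5G1 replicate 1 (0.0583) or 2 (0.0655), without w1118 replicate 1 (0.0886) or 2 (0.0801), and at a threshold of 0.01. Of the 51 other listed pathway genes that were matched, some of them too low to be tested, 6 passed in the main fit. Of all tested genes 13.9% passed, a share that leaves untested genes out, so 6 of 51 cannot be set directly against it. The count of these pathway genes was 3 at a threshold of 0.01, 1 after scaling by total counts, and 3 to 8 with 1 library left out. It was 3 without Adar5G1 replicate 2 or w1118 replicate 1. Over all genes tested, 900 rose and 523 fell in the main fit, 582 and 209 by total counts, 545 and 331 when w1118 replicate 1 was left out, 456 and 248 at a threshold of 0.01, and 812 and 764 with upper-quartile scaling. The cause of these changes was not tested.

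Replicate numbers did not pair the libraries: the deviations of same-numbered libraries from their group means correlated at 0.09, -0.17 and -0.27 over genes. Between differently numbered libraries the correlation ran from -0.16 (Adar5G1 replicate 1, w1118 replicate 2) to 0.31 (Adar5G1 replicate 3, w1118 replicate 2). Whether any libraries shared a batch was not tested. With the replicate block 3 P450 genes rose (Cyp12a5 at an adjusted p of 0.0825), 1 fell and 2 other pathway genes passed, the calls of Eip78C (0.0691), EcR (0.106), Cyt-b5-r (0.0707) and Keap1 (0.132) being lost, and 484 and 278 of all genes rose and fell. Depth limits Cyp12d1-p, Cyp49a1 and Cyp301a1, each with at most 79 counts over a group.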
